A study of Mus musculus with 6 samples.

Results

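The genes described here are 9 secreted serpins of mouse chromosome 12: Serpina1a, Serpina1b, Serpina1c, Serpina1d and Serpina1e, which code for copies of alpha-1-antitrypsin, their relatives Serpina3k, Serpina3m and Serpina3n, and Serpina6. They were chosen by name from the 39179 genes counted, and all 9 were found and passed the filter on low counts. RNA was sequenced from liver of C57BL/6J mice fed a high-fat diet, with 60% of the energy from fat, from the age of 5 weeks and for 21 weeks. The obese mice were sorted by the histology of stained liver tissue. The NASH group (nonalcoholic steatohepatitis, a fatty liver with inflammation and cell injury) and the steatosis group (fat storage without these) held 3 libraries each. All mice shared the strain and the diet, and the labels name no engineered allele, so the groups are classes of histology and not a treatment, and no lean liver was analysed here. The labels do not state that each library came from a separate mouse, so p-values measure the spread between these samples, which may be partly technical.

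Serpins are inhibitors that offer a protease an exposed reactive centre loop, and trap the protease when it cuts the loop. Hepatocytes secrete most of the circulating clade A serpins. Alpha-1-antitrypsin restrains neutrophil elastase, and the mouse carries several copies of its gene whose loops differ, whereas humans have a single one. The Serpina3 genes are the mouse relatives of human alpha-1-antichymotrypsin, of which Serpina3n is known as an acute-phase gene in mice. Serpina6 is a member of the clade that no longer inhibits proteases and instead carries glucocorticoids in blood, as corticosteroid-binding globulin.

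The 5 Serpina1 coding sequences of 1242 bases were 96.3% to 98.5% identical, and 86 of the 1242 positions (6.92%) were not alike in all copies. The following 60 bases, positions 1101 to 1160, are shown because they hold the most differences of any stretch of that length, 18 of 60 positions (30%), against a median of 4. They code for part of the reactive centre loop. Capitals mark positions at which the copies are not all alike. Sequences are from the GENCODE M21 transcripts and coordinates from GRCm38, minus strand.
Serpina1a (chr12:103853757-103853816): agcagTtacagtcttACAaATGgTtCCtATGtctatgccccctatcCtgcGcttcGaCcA
Serpina1b (chr12:103728324-103728383): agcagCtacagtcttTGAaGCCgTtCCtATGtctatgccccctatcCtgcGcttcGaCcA
Serpina1c (chr12:103895094-103895153): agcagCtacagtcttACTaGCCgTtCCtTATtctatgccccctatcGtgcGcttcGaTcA
Serpina1d (chr12:103763762-103763821): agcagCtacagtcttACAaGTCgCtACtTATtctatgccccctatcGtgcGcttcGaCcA
Serpina1e (chr12:103947100-103947159): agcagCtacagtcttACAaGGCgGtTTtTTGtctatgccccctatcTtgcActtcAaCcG
Serpina1a and Serpina1c were the closest pair over the whole coding sequence, with 19 differences, and Serpina1e differed from both Serpina1b and Serpina1d at 46 positions.

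The likeness of the copies bears on how well their counts can be told apart. Of all 150-base stretches, the length of a read, in 1 transcript per gene, 40.3% in Serpina1c, 59.3% in Serpina1a, 76.7% in Serpina1d, 78.8% in Serpina1b and 90.6% in Serpina1e occurred in no transcript of another gene. In Serpina3k, Serpina3m, Serpina3n and Serpina6 this was 99.7% or more. How the authors' counting treated reads that match several genes is not given in the sources used here, so values of single Serpina1 copies are uncertain and their sum is less so. Serpina1c also shares 429 exon bases with B430119L08Rik on the opposite strand, which had 31 to 93 counts in NASH and 6 to 162 in steatosis, and Serpina3k and Serpina3m share 60 exon bases.

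The libraries held between 13909238 and 17577354 counts in NASH and between 14883514 and 18002095 in steatosis. Mitochondrially encoded genes took 62.0% to 83.9% of the counts in NASH and 68.3% to 77.9% in steatosis. The 2 libraries that stood apart were NASH 3, with 22.3% of counts at 4 rRNA-like loci (Gm42418, Gm23935, Gm26917 and Lars2), and steatosis 2, with 8.96%, against 0.596% to 1.06% in the other NASH libraries and 0.764% to 0.791% in the other steatosis libraries. The 9 genes took 1.08% to 1.96% of the counts outside those loci and the mitochondrial genes in NASH and 1.28% to 1.90% in steatosis. Hepatocyte markers summed to between 8815 and 10903 CPM in NASH and between 10441 and 11381 CPM in steatosis, where CPM is the count relative to a library size scaled by TMM (trimmed mean of M values). None of the 6 hepatocyte markers tested passed edgeR, DESeq2 or limma-voom, and 0 had an unadjusted p under 0.05. The groups did not overlap for Alb (log2 fold change -0.40) and Ttr (-0.54), lower in NASH, and for Apoa1 (0.50), higher in NASH. These markers were named after their values were seen. Over all genes tested, the groups did not overlap for 29.3%. All 8 neutrophil markers together reached 0.603 to 1.27 CPM in NASH and 0.678 to 1.26 CPM in steatosis, with Ngp at 0 in all libraries, and 3 adipocyte markers were at 0 in every library. Of the 11 marker lists 1 held a called gene and had sums that did not overlap, that of stellate cells, the collagen-producing cells of the liver. Its 6 markers summed to 41.3, 48.7 and 33.5 CPM in NASH and 57.5, 69.8 and 56.0 CPM in steatosis. Among them Dcn, for the matrix proteoglycan decorin, was called lower in NASH by edgeR, DESeq2 and limma-voom (log2 fold change -1.03, SE 0.23, adjusted p = 0.0348 by edgeR). Dcn had 13.5, 7.63 and 12.9 CPM in NASH and 23.7, 22.0 and 23.6 CPM in steatosis. It was the only marker of the 6 whose own groups did not overlap. The sum of the other markers, without Dcn, overlapped between the groups through NASH 2. Lrat, named after its values were seen, went the other way with a log2 fold change of 0.16. The adjusted p of Dcn lay between 0.0584 and 0.115 by edgeR with any 1 library left out, and between 0.000475 and 0.154 over all alternatives.

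None of the 9 genes passed the test of NASH over steatosis (edgeR's quasi-likelihood test, Benjamini-Hochberg adjusted p under 0.05), while 4.82% of the 11375 genes tested did, 1.49% as higher and 3.33% as lower in NASH. DESeq2 and limma-voom each called 1 of the 9, Serpina6, against 7.14% of all genes by DESeq2 and 4.64% by limma-voom. Without the filter on low counts edgeR called 2 of the 9, Serpina6 and Serpina1e, against 7.31% of all genes. At an unadjusted p under 0.05, 1 of the 9 stood below the threshold, against 23.2% of all genes. NASH and steatosis libraries were fully separate for 2 of the 9, Serpina1b and Serpina6, against 29.3% of all genes. Of the fitted log2 fold changes 7 were below 0 and 2 above, with a median of -0.15, beside 0.01 over all genes tested. In bulk liver, fewer cells of a type and less RNA per cell cannot be told apart, and this holds for every difference given here.

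**Figure D1:**
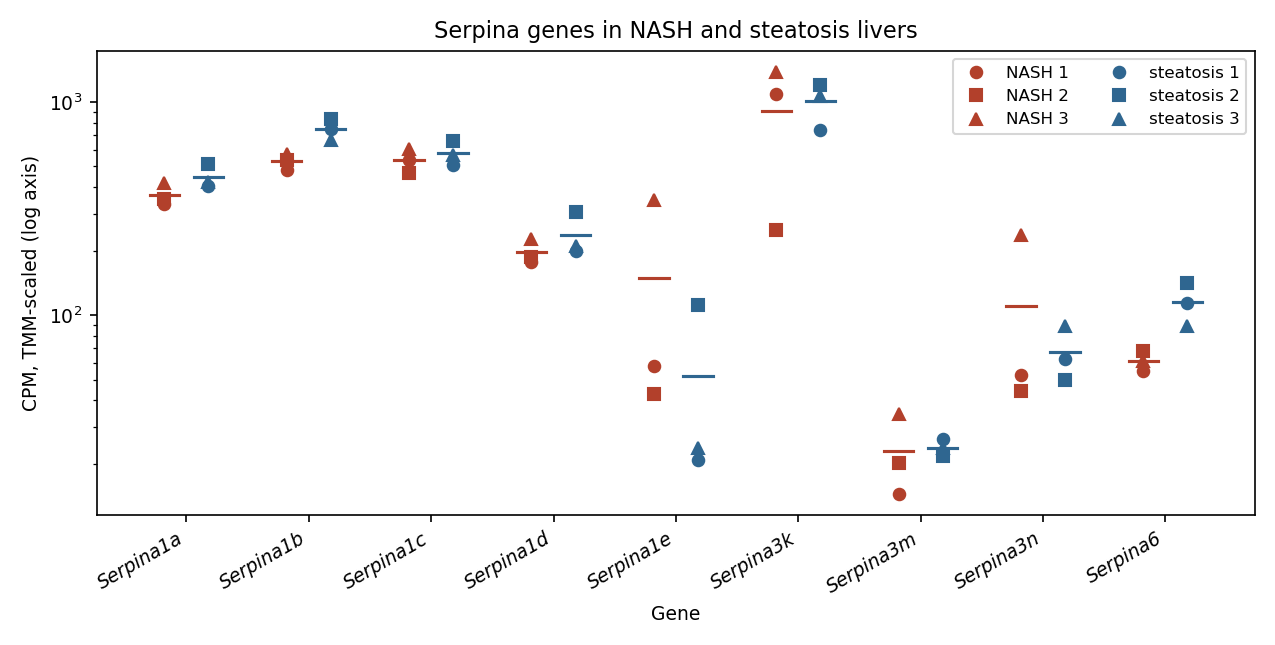
CPM (TMM-scaled, log axis) of the 9 genes in each library, with NASH in red left of steatosis in blue and a bar at each group's mean. Serpina1a to Serpina1d lie close together within a group, Serpina1e and Serpina3n are high in NASH 3, Serpina3k is low in NASH 2, and only for Serpina1b and Serpina6 do the groups not overlap.

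To set levels beside each other, CPM was divided by the length of all annotated exon bases of a gene, in kilobases. On this measure Serpina3k and Serpina1c were highest. Their means were 443 and 393 CPM per kb in NASH and 491 and 425 CPM per kb in steatosis. The order depends on that length, since Serpina1b was divided by 2415 bases, while its transcript Serpina1b-201 has 1394 bases. Reads shared between the Serpina1 copies may bear on the order as well. Serpina3k ranked 26th in NASH and 19th in steatosis among the 37570 genes that are not mitochondrially encoded. Serpina1b averaged 219.7 CPM per kb in NASH and 310.1 CPM per kb in steatosis, Serpina1a 201 in NASH and 243 in steatosis, and Serpina1d 142 in NASH and 171 in steatosis. Serpina1e had 92.5 CPM per kb in NASH and 32.3 in steatosis, and Serpina3n 53.9 in NASH and 32.6 in steatosis. Serpina6 had 34.8 CPM per kb in NASH and 65.3 in steatosis, and Serpina3m, the lowest, 13.5 in NASH and 14.0 in steatosis. In both groups the libraries of Serpina3k overlapped with those of Serpina1c in CPM per kb, those of Serpina1b with those of Serpina1a, and those of Serpina1e with those of Serpina3n. In NASH, Serpina1d and Serpina1e and also Serpina3n and Serpina6 overlapped, and in steatosis Serpina1e and Serpina3m did. The other neighbours in the order of means were separate.

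The summed level of the 5 alpha-1-antitrypsin copies overlapped between the groups. It was 1586.5, 1585 and 2171 CPM in NASH 1, 2 and 3 and 1886, 2421 and 1885 CPM in steatosis 1, 2 and 3. NASH 3 and steatosis 2 were the highest of their groups, and NASH 3 stood above steatosis 1 and 3. The sum averaged 1781 ± 338 CPM in NASH and 2064 ± 309 CPM in steatosis (SD, n = 3 each), a log2 fold change of -0.21 (SE 0.27, 95% interval -0.82 to 0.40, adjusted p = 0.691 by edgeR). The interval takes in values on both sides of 0.

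Serpina1a to Serpina1d, the copies with most of the counts, varied little within a group, by at most 1.29 times in NASH and 1.53 times in steatosis. Serpina1a had 332, 353 and 420 CPM in NASH and 404, 512 and 421 CPM in steatosis, and the groups overlapped (log2 fold change -0.28, SE 0.24, adjusted p = 0.526 by edgeR). Serpina1c had 536, 466 and 602 CPM in NASH and 508, 659.6 and 567 CPM in steatosis, also with overlap (log2 fold change -0.11, SE 0.24, adjusted p = 0.826 by edgeR). Serpina1d had 178, 187 and 228 CPM in NASH and 199.7, 306 and 211 CPM in steatosis (log2 fold change -0.27, SE 0.25, adjusted p = 0.557 by edgeR), and its groups overlapped as well.

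Serpina1b stood lower in every NASH library. It had 483, 536 and 573 CPM in NASH 1, 2 and 3 and 753, 831 and 662 CPM in steatosis 1, 2 and 3. All NASH libraries lay below all steatosis libraries, with a mean of 531 ± 45.2 CPM in NASH and 749 ± 84.6 CPM in steatosis (SD, n = 3 each). The log2 fold change was -0.50 (SE 0.24, 95% interval -1.02 to 0.03), and the adjusted p of 0.238 by edgeR's quasi-likelihood test did not pass.

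The mix of copies, the share of each in the counts of all 5, was compared next. No share could pass a threshold of 0.05, since the exact permutation test of 3 against 3 libraries gives no p under 0.1. The shares are therefore a description. Serpina1b made up 30.4%, 33.8% and 26.4% of Serpina1 counts in NASH and 39.9%, 34.3% and 35.1% in steatosis, a mean of 30.2% ± 3.71 in NASH and 36.5% ± 3.02 in steatosis (SD, n = 3 each). Every NASH share lay below every steatosis share, though NASH 2 and steatosis 2 were close. The difference of -6.26 percentage points had an exact permutation p of 0.1 (two-sided), the smallest that 3 against 3 libraries can give, and 0.5 after Benjamini-Hochberg adjustment over the 5 copies. Shares add up to a whole, so part of this follows from the share of Serpina1e, and without Serpina1e the Serpina1b share was 31.6%, 34.7% and 31.4% in NASH and 40.4%, 36.0% and 35.6% in steatosis, a difference of -4.74 points (exact permutation p = 0.1, adjusted 0.4). For Serpina1c, again without Serpina1e, the share was 35.1%, 30.2% and 33.0% in NASH and 27.2%, 28.6% and 30.5% in steatosis, with overlap, a difference of 4.02 points (exact permutation p = 0.2, adjusted 0.4). Serpina1c took 30.3% ± 3.12 in NASH and 28.1% ± 1.74 in steatosis, Serpina1a 20.8% ± 1.46 in NASH and 21.6% ± 0.611 in steatosis, and Serpina1d 11.2% ± 0.657 in NASH and 11.5% ± 1.05 in steatosis, each with overlap between the groups. Serpina1e took 3.66%, 2.70% and 16.0% in NASH and 1.11%, 4.62% and 1.26% in steatosis. The widest Wilson 95% interval of any copy's share in a library reached 0.613 points to either side. These intervals cover counting error only.

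**Figure D2:**
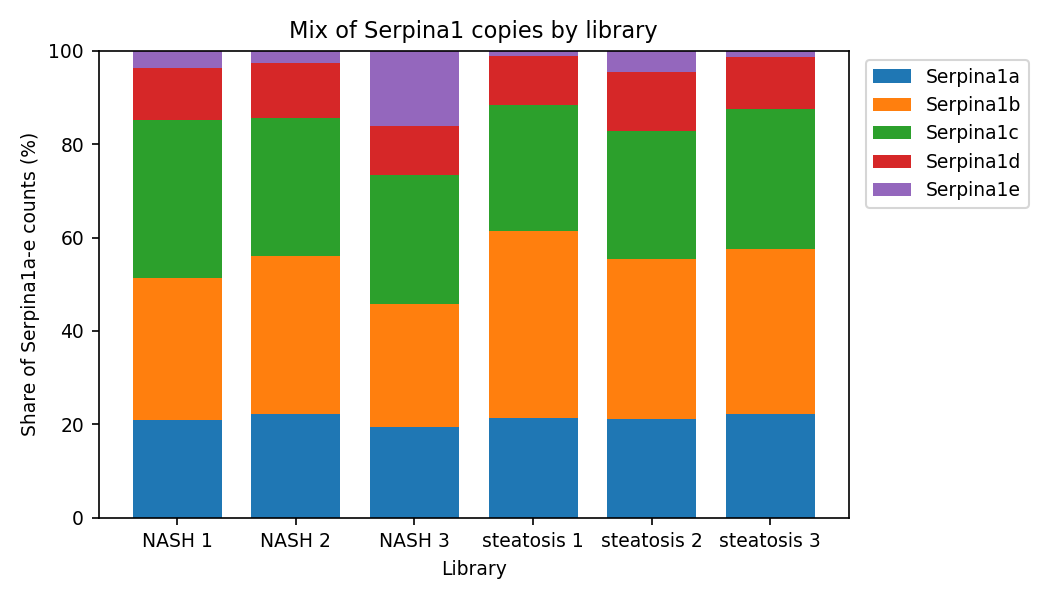
Share of each Serpina1 copy (%) in the counts of the 5 copies, one stacked bar per library, NASH left of steatosis. The Serpina1b band is between 26.4% and 33.8% in NASH and between 34.3% and 39.9% in steatosis, and the Serpina1e band is widest in NASH 3.

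Serpina1e was the copy that varied most within a group. It had 58.1, 42.7 and 348 CPM in NASH and 21.0, 112 and 23.8 CPM in steatosis. NASH 3 was the highest library and steatosis 2 came next, so the groups overlapped. The levels averaged 150 ± 172 CPM in NASH and 52.2 ± 51.6 CPM in steatosis (SD, n = 3 each), and varied 8.14 times within NASH and 5.32 times within steatosis. The log2 fold change of 1.52 (SE 0.82, 95% interval -0.31 to 3.35) had an adjusted p of 0.299 by edgeR. The 2 high libraries are those with the largest rRNA-like shares, and the part of that in the result was not tested. Without NASH 3 the log2 fold change was -0.04, without steatosis 2 it was 2.74 (adjusted p = 0.146 by edgeR), and over the 4 libraries left when both were taken out it was 1.17 (adjusted p = 0.143 by edgeR). With no filter on low counts edgeR's adjusted p was 1.02e-05. The log2 fold change there was 1.49, but its SE was 0.28 in place of 0.82, although the libraries varied as much. Over all alternatives the adjusted p lay between 1.02e-05 and 0.980.

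**Figure D3:**
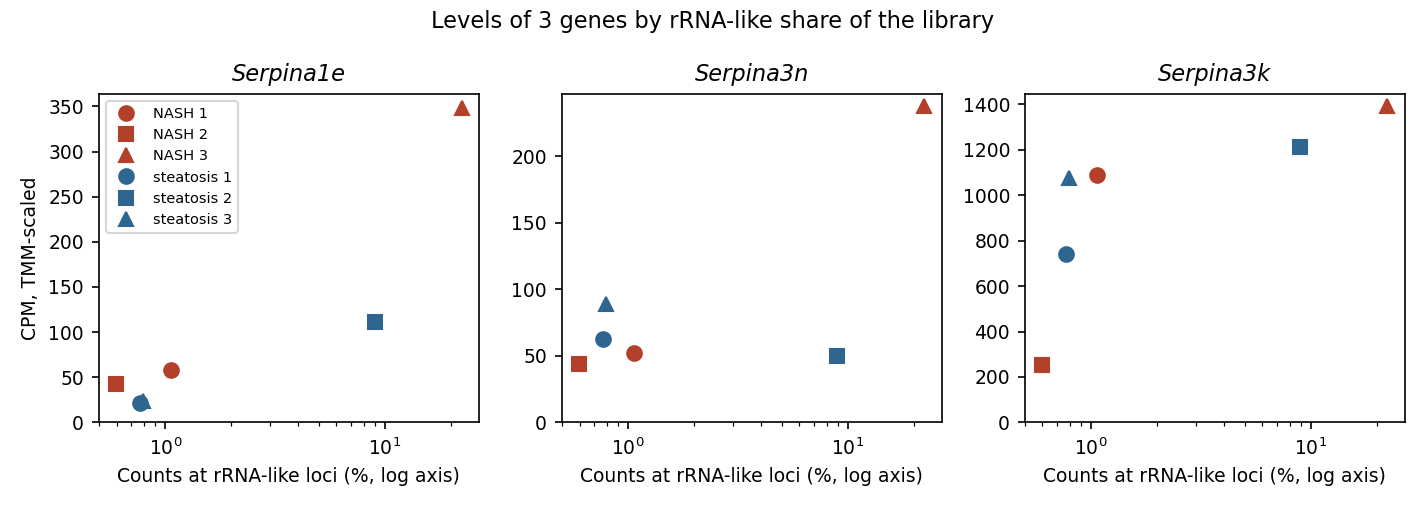
CPM (TMM-scaled) of Serpina1e, Serpina3n and Serpina3k against the share of counts at rRNA-like loci (%, log axis), one point per library. NASH 3, at 22.3%, has the highest level of all 3 genes, and steatosis 2, at 8.96%, is second for Serpina1e and Serpina3k but second lowest for Serpina3n.

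The Serpina3 genes, which in humans correspond to a single antichymotrypsin gene, varied within NASH by 5.55 times (Serpina3k), 2.36 times (Serpina3m) and 5.39 times (Serpina3n), against 1.20 to 1.79 times within steatosis. Serpina3k, in rodents a kallikrein-binding inhibitor, had 1089.6, 251 and 1390.5 CPM in NASH and 741, 1213 and 1075 CPM in steatosis. NASH 2 was low by itself, and the other libraries of both groups overlapped. The log2 fold change was -0.15 (SE 0.50, adjusted p = 0.894 by edgeR), and without NASH 2 it was 0.32 (adjusted p = 0.619). Serpina3m had 14.6, 20.4 and 34.5 CPM in NASH and 26.2, 21.9 and 23.9 CPM in steatosis. Behind these stood 210, 304 and 380 counts in NASH and 426, 365 and 643 counts in steatosis. Its groups overlapped (log2 fold change -0.06, SE 0.29, adjusted p = 0.936 by edgeR), and the sign turned positive, 0.04, when libraries were scaled to the other genes without TMM.

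Serpina3n, an acute-phase gene that inhibits granzyme B in mice, had 52.2, 44.1 and 237 CPM in NASH and 62.8, 49.9 and 89.2 CPM in steatosis. Only NASH 3 stood above all steatosis libraries, and NASH 2 lay below all of them. It averaged 111 ± 109 CPM in NASH and 67.3 ± 20.0 CPM in steatosis (SD, n = 3 each), a log2 fold change of 0.72 (SE 0.56, 95% interval -0.52 to 1.96, adjusted p = 0.478 by edgeR). Without NASH 3 the log2 fold change was -0.47 (adjusted p = 0.386), so the direction rested on that library, the one with the largest rRNA-like share. Over the 4 libraries without NASH 3 and steatosis 2 it was -0.66 (adjusted p = 0.363).

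Serpina6, the glucocorticoid carrier, was lower in every NASH library and came closest to the threshold. It had 55.0, 67.8 and 61.3 CPM in NASH 1, 2 and 3 and 114, 142 and 89.3 CPM in steatosis 1, 2 and 3. All NASH libraries lay below all steatosis libraries, with means of 61.3 ± 6.41 CPM in NASH and 115 ± 26.4 CPM in steatosis (SD, n = 3 each). The log2 fold change was -0.91 (SE 0.24, 95% interval -1.44 to -0.37), or 0.533 times the steatosis level (0.369 to 0.772), with an adjusted p of 0.0579 by edgeR's quasi-likelihood test, which does not pass. The adjusted p was 0.00914 by DESeq2, 0.0455 by limma-voom and 0.0144 by edgeR without the filter on low counts, so the call depended on the tool. Leaving out 1 library at a time, the log2 fold change stayed between -1.04 and -0.73, with adjusted p values between 0.0512 and 0.209 by edgeR. Over the 4 libraries with few rRNA-like counts it was -0.73 (adjusted p = 0.317), the highest p of the alternatives, which began at 0.00914. The sum of the stellate cell markers was also lower in every NASH library than in every steatosis library, as Serpina6 and Serpina1b were. Dcn was the only marker of that list whose own groups did not overlap, and without Dcn the sum overlapped through NASH 2. Among the hepatocyte markers Alb and Ttr were lower in every NASH library too, and Apoa1 was higher in every NASH library. The part of any of these in the results was not tested.

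**Figure D4:**
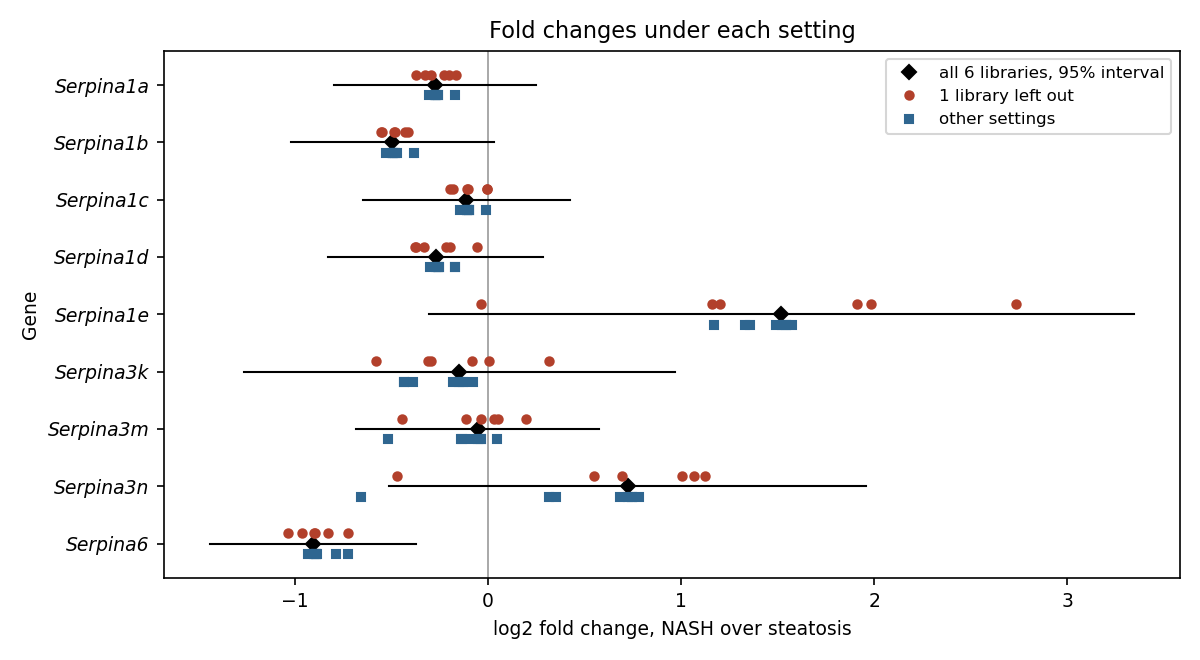
log2 fold change, NASH over steatosis, of the 9 genes with all 6 libraries (diamond, 95% interval), with 1 library left out (red) and under the other settings (blue). Serpina1a, Serpina1b, Serpina1c, Serpina1d and Serpina6 stay below 0 in every setting drawn, while Serpina1e, Serpina3k, Serpina3m and Serpina3n cross 0.

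Most clade A serpins form a cluster on chromosome 12, with 28 genes over 799.5 kb (GRCm38, GENCODE M21). Serpina6 lies at chr12:103646630-103657212 and Serpina1b at chr12:103728156-103830373, a span that holds Serpina1d at chr12:103763594-103773592. Serpina1a lies at chr12:103853589-103863562, Serpina1c at chr12:103894926-103904887 and Serpina1e at chr12:103946931-103958975, all on the minus strand. On the plus strand are Serpina3k at chr12:104338486-104346144, Serpina3m at chr12:104338486-104394257, a span that holds Serpina3k, and Serpina3n at chr12:104406729-104414329. Of the 15 cluster genes with enough counts to test, 1 passed, against 4.82% of all genes tested, and 4 had an unadjusted p under 0.05, against 23.2%. The log2 fold change was below 0 in 8 and above 0 in 7.

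**Figure D5:**
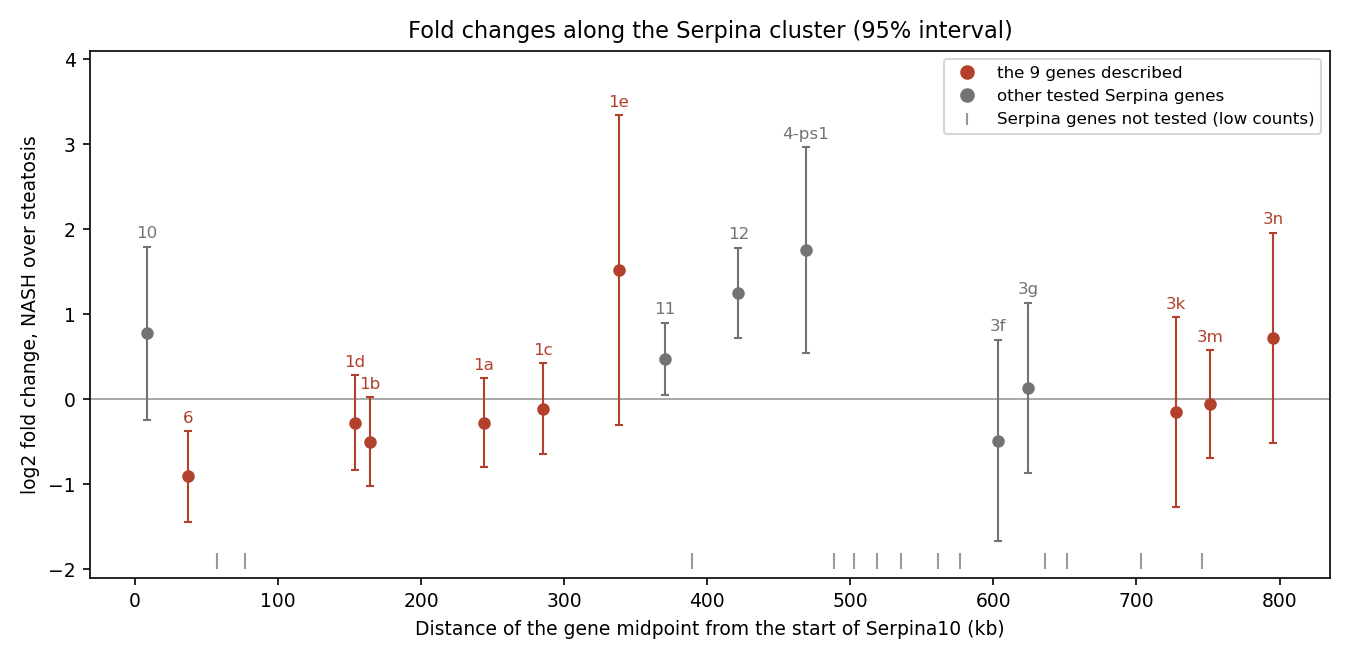
log2 fold change, NASH over steatosis, with its 95% interval, against the distance of each gene's midpoint from the start of Serpina10 (kb), with the 9 described genes in red, the other tested Serpina genes in grey and genes with too few counts as ticks. Values above and below 0 are mixed along the cluster, and Serpina12 is the 1 gene that passed.

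Serpina12, or vaspin, an adipokine that inhibits kallikrein 7, was the cluster gene that passed. It had 20.0, 12.6 and 17.2 CPM in NASH and 6.78, 8.69 and 5.49 CPM in steatosis, with no overlap, and rose with a log2 fold change of 1.25 (SE 0.24, adjusted p = 0.0206 by edgeR). The call was lost without NASH 1 (adjusted p = 0.0630), without NASH 3 (0.0540), without steatosis 1 (0.0823) and over the 4 libraries with few rRNA-like counts (0.104), and the lowest p of an alternative was 2.16e-05. Serpina4-ps1, an unprocessed pseudogene named here after its values were seen, had 551, 95.6 and 248 CPM in NASH and 78.9, 130 and 55.8 CPM in steatosis. Its groups overlapped through NASH 2, and the log2 fold change of 1.76 (SE 0.55) had an adjusted p of 0.0904 by edgeR. The adjusted p was 0.0371 without NASH 2 and 3.47e-07 without the filter, where the SE was 0.29, with a highest p of 0.272 over the alternatives. Of the other 15 listed clade A serpins 6 were tested, 1 rose (Serpina12) and 5 did not pass, with a median log2 fold change of 0.30 (range -0.49 to 1.25), beside 0.01 over all genes.

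Of the serpins of other clades 13 of 15 were tested and none passed edgeR, DESeq2 or limma-voom. Over all genes these called 4.82%, 7.14% and 4.64%. At an unadjusted p under 0.05 there was 1 of the 13, against 23.2% of all genes, and the median log2 fold change was -0.11 (range -1.28 to 0.53). Serpinc1, or antithrombin, had 300.3, 263 and 324 CPM in NASH and 309, 296 and 344 CPM in steatosis (log2 fold change -0.10, adjusted p = 0.840 by edgeR). Its sign depends on the scaling, as it was 0.0050 when libraries were scaled to the other genes without TMM. The list of target proteases held 13 genes, among them the peroxidase Mpo. Of these 6 were tested, F2, F10, F11, Plg, Tmprss6 and Prtn3, and none passed any of the 3 tools. At an unadjusted p under 0.05 there were 2 (1 higher and 1 lower in NASH), against 23.2% of all genes. Elane, the elastase of neutrophils, was too low to test, with 7 counts summed over NASH and 13 over steatosis.

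The list for folding and export of alpha-1-antitrypsin in the endoplasmic reticulum held export genes, general chaperones such as Hspa5 and degradation factors such as Edem1. The chaperones and degradation factors serve many proteins, so counts over the list are not particular to alpha-1-antitrypsin. All 20 genes were tested and none passed edgeR or limma-voom. DESeq2 called 6, 5 higher and 1 lower in NASH, against 7.14% of all genes. At an unadjusted p under 0.05 there were 12 of 20 (11 higher and 1 lower in NASH), against 23.2% of all genes. In 11 the groups did not overlap (9 higher and 2 lower), against 29.3%. Their median log2 fold change was 0.56 (range -1.06 to 1.29), beside 0.01 over all genes. Lman1, the receptor that carries alpha-1-antitrypsin out of the endoplasmic reticulum, had 30.2, 25.6 and 24.5 CPM in NASH and 14.6, 22.2 and 20.1 CPM in steatosis. Every NASH library of Lman1 stood above every steatosis library, and its log2 fold change was 0.50 (SE 0.21, adjusted p = 0.188 by edgeR). The other export genes, named after their values were seen, did not share this. The log2 fold change was -0.02 for Mcfd2, 0.17 for Sec23a, 0.30 for Sec23b and 0.17 for Sec24c, each with overlap. Surf4 was lower in every NASH library (log2 fold change -0.45, adjusted p = 0.221 by edgeR). Calr, the chaperone calreticulin, named after its values were seen, had 189.8, 257 and 224 CPM in NASH and 97.2, 128 and 143 CPM in steatosis, without overlap. Its log2 fold change was 0.86 (SE 0.24), with an adjusted p of 0.0705 by edgeR and 0.00812 by DESeq2, and between 0.00812 and 0.277 over the alternatives. Sar1b, a GTPase of the vesicles that leave the endoplasmic reticulum, also named after its values were seen, stood the other way. It had 19.7, 9.38 and 14.8 CPM in NASH and 40.7, 26.6 and 24.2 CPM in steatosis, without overlap (log2 fold change -1.06, SE 0.29, adjusted p = 0.0685 by edgeR and 0.0197 by DESeq2, and between 0.000442 and 0.228 over the alternatives).

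Among 12 liver factors of Serpina1 transcription none passed edgeR or limma-voom, and DESeq2 called 1, against 7.14% of all genes by DESeq2. At an unadjusted p under 0.05 there was 1, fewer than the 23.2% of all genes. The median log2 fold change of the 12 was -0.10 (range -1.12 to 0.53). Cebpb, a factor of the acute-phase response, had 15.2, 24.8 and 14.3 CPM in NASH and 37.3, 28.6 and 17.1 CPM in steatosis, with overlap (log2 fold change -0.61, adjusted p = 0.266 by edgeR). Of the interleukin-6 and STAT3 genes 12 of 14 were tested and none passed edgeR, against 4.82% of all genes. DESeq2 and limma-voom each called 1, while over all genes DESeq2 called 7.14% and limma-voom 4.64%. At an unadjusted p under 0.05 there was 1, against 23.2% of all genes. Stat3, which drives acute-phase transcription, had 20.3, 20.6 and 32.2 CPM in NASH and 20.4, 13.5 and 33.7 CPM in steatosis (log2 fold change 0.11, adjusted p = 0.881 by edgeR). Socs3, its feedback inhibitor, named after its values were seen, was, like Stat3, highest in NASH 3 and in steatosis 3 of their groups, with 8.48, 5.02 and 33.7 CPM in NASH and 6.04, 5.45 and 23.2 CPM in steatosis (log2 fold change 0.41, adjusted p = 0.769 by edgeR).

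The list for the glucocorticoid axis, whose hormone Serpina6 carries, held steroid-metabolizing enzymes as well as receptor and response genes. Of its 12 genes 1 fell, the steroid enzyme Akr1c6, and 11 did not pass edgeR, against 4.82% of all genes called. DESeq2 called 2 and limma-voom 1, while over all genes DESeq2 called 7.14% and limma-voom 4.64%. At an unadjusted p under 0.05 there were 2 of 12, against 23.2%. The median log2 fold change of the 12 was -0.13 (range -1.39 to 0.38). Akr1c6, a steroid-reducing enzyme, had 39.8, 30.7 and 29.6 CPM in NASH and 77.9, 81.7 and 72.2 CPM in steatosis, with no overlap, a log2 fold change of -1.21 (SE 0.21, adjusted p = 0.0159 by edgeR). The call was lost without NASH 2 (adjusted p = 0.0575), NASH 3 (0.0543), steatosis 1 (0.0541) or steatosis 2 (0.0715) and over the 4 libraries with few rRNA-like counts (0.158), and the lowest p of an alternative was 2.28e-05. Nr3c1, the glucocorticoid receptor, had 9.17, 8.17 and 9.62 CPM in NASH and 9.55, 9.47 and 10.4 CPM in steatosis, with overlap (log2 fold change -0.13, adjusted p = 0.715 by edgeR).

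The genes whose level most closely followed the Serpina1 sum, Serpina3k, Serpina3m, Serpina3n or Serpina6 over the 6 libraries were ranked as a description. The measure was Pearson's r of log2 CPM among the 3574 genes that averaged a log2 CPM of 3 or more. Serpina genes were left out of these candidates. With 6 points and that many candidates, high values of r arise easily, and no function is read from them. For Serpina6 they were Anpep (r = 0.997), Swi5 (0.986) and Amy1 (0.975). Anpep (adjusted p = 0.0455 by edgeR) and Amy1 (0.0463) passed the test as lower in NASH. Both were picked for following Serpina6, which was lower in every NASH library, so their direction is no separate result. Anpep had 13.1, 15.7 and 14.6 CPM in NASH and 25.1, 33.8 and 21.3 CPM in steatosis. For Serpina3n they were Nnmt (r = 0.991), C8a (0.961) and Irf2 (0.953), and Nnmt had 22.3, 17.6 and 64.8 CPM in NASH and 23.0, 20.3 and 27.6 CPM in steatosis, highest in NASH 3 like Serpina3n. For Serpina3k they were Top1 (r = 0.997), Iigp1 (0.990) and Itch (0.984), and for Serpina3m Sil1 (0.995), Mup20 (0.979) and Mbnl2 (0.972). The sum of the Serpina1 copies was followed by Ece1 (r = 0.957), Ccser2 (0.955) and Ttyh2 (0.939).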

How the data were processed

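Liver RNA of 3 NASH and 3 steatosis samples was analysed from the authors' deposited raw counts of reads for each gene, unnormalized whole numbers. Per the labels' protocols, polyadenylated RNA was sequenced as 150 bp read pairs. The submitters' processing notes name TopHat2, HTSeq and mm10 (GRCm38), without versions. For annotation release, strand and shared reads, the settings were not given in the sources used here, so reads of near-identical copies and of genes on opposite strands may be assigned wrongly. Gene names and coordinates were taken from GENCODE M21.

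Counts were tested in R 4.3.3 with edgeR 4.0.16 (quasi-likelihood test, TMM scaling, the default filter on low counts, which left 11375 genes, Benjamini-Hochberg adjusted p under 0.05), NASH over steatosis. The standard error was taken from the log2 fold change and the F statistic, an approximation, and the 95% interval from it. The summed Serpina1 copies replaced the single copies in a second fit. Copy shares were compared by exact permutation over libraries. Levels are CPM relative to the TMM-scaled total, with mitochondrial counts in it. Alternatives were DESeq2 1.42.0, limma-voom (limma 3.58.1), other scalings and filters, the replicate number as a block, and each library left out in turn. Leaving out the 2 libraries with many rRNA-like counts, and summing Serpina1a to Serpina1d alone, were added after the data were seen. Libraries of a group differed beyond sampling noise in every pair.

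The genes described, the gene lists and the tests were chosen with earlier results of these data known. Named genes were all 9 members, list genes that passed, and Nr3c1, Stat3, Cebpb, Elane, Lman1 and Serpinc1. Also named were the 3 genes outside the clade most like the Serpina1 sum, Serpina3k, Serpina3m, Serpina3n and Serpina6 in pattern. A gene that the rule also named is not reported here. Others are said to be chosen after their values were seen. Coding sequences are those of the shortest full-length coding transcript of each copy. The 11 lists of cell type markers were used as a description.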

Additional observations from a re-analysis of the deposited data

How the results depend on the processing

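The log2 fold changes of Serpina1a, Serpina1b, Serpina1c, Serpina1d and the Serpina1 sum kept their sign and stayed short of the threshold in the 14 alternative settings (15 for the sum, which was -0.30 with Serpina1e left out). The number of the 9 genes called was 0 by edgeR, 1 by DESeq2, 1 by limma-voom and 2 without the filter on low counts (Serpina6 and Serpina1e), and 0 to 0 with 1 library left out. The number of all genes called was 548, against 1447 without the filter, 36 in the 4 libraries with few rRNA-like counts (an alternative added after the data were seen) and 114 to 468 with 1 library left out, where fewer samples were tested. Without the filter the SE fell for members that varied widely within a group, to 0.28 from 0.82 for Serpina1e and to 0.27 from 0.56 for Serpina3n. It rose to 0.28 from 0.24 for Serpina6 and to 0.30 from 0.24 for Serpina1b. The p values of that setting thus follow the spread of the single gene less closely. The causes of the change without the filter were not tested.

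With 1 library left out, the log2 fold change ranged from -0.039 (without NASH 3) to 2.74 for Serpina1e, from -0.58 to 0.32 for Serpina3k, from -0.45 to 0.19 for Serpina3m, from -0.47 to 1.13 for Serpina3n, from -0.15 to 0.54 for Stat3 and from -0.78 to 1.46 for Socs3. Serpina3k crossed 0 without NASH 2 (0.32) and without steatosis 2 (0.0046). Serpina3m crossed 0 without NASH 1 (0.19), NASH 2 (0.05) or steatosis 1 (0.03), and Stat3 without NASH 3 (-0.14) or steatosis 2 (-0.15). In the 4 libraries it was -0.66 for Serpina3n, -0.40 for Stat3 and -1.12 for Socs3. When libraries were scaled to the other genes without TMM, the median of all genes was 0.12 in place of 0.01, Serpina3m was 0.045 and Serpinc1 0.0050, and of the calls 179 were higher and 222 lower in NASH, against 169 higher and 379 lower. The difference in share was -0.30 points for Serpina1d and ranged from -0.73 to 0.28 with 1 library left out, 0.038 without NASH 3 and 0.28 without steatosis 2. It ranged from -8.06 to -4.35 points for Serpina1b. Leaving out copies that fail the low-count filter gave no other value, since all 5 pass.

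The labels do not say that the replicate numbers pair the samples. Over the tested genes, same-numbered libraries deviated together with r of 0.0349, -0.0123 and 0.0706. Such values cannot exclude a pairing that acts on some genes only. With the number as a replicate block, 466 genes and none of the 9 were called, and the log2 fold change of Serpina6 was -0.89 (adjusted p = 0.0727 by edgeR). Depth limits Serpina3m most, which had 210 counts in NASH 1.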
